A study of Mus musculus with 16 samples.

Results

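The genes described here encode the proteins with which mammalian cells detect foreign or misfolded RNA in the cytosol, and nucleic acids in the left-handed Z form. They were followed by name, Ddx58, Ifih1, Dhx58, Ddx60, Eif2ak2, Adar, Zbp1 and Mavs, and all 8 were found among the 32285 genes of the count tables. The data are single-nucleus RNA-seq libraries from the hippocampus of 16 male mice, 1 mouse per library, in 4 groups of 4. C57BL/6 mice (WT), aged 2 months and 23 days, received either vehicle or DMXAA, a small molecule that activates mouse STING, the adaptor of cytosolic DNA sensing. Ifnar1-/- mice, called KO here, lack the IFNAR1 chain through which cells receive type I interferon, and were aged 3 months and 3 days and received the same 2 treatments. DMXAA or vehicle was injected into the peritoneal cavity, not into the brain. Because every KO mouse belonged to the older cohort, genotype and age cannot be told apart in any comparison between genotypes.

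RIG-I (encoded by Ddx58) and MDA5 (Ifih1) are helicases that recognise double-stranded RNA and pass the signal to MAVS, an adaptor on the mitochondrial surface, which leads to the production of type I interferon. LGP2 (Dhx58) is a related helicase without the signalling domains and tunes the activity of the other two, and DDX60 is a further helicase of the antiviral response. PKR (Eif2ak2) is a kinase that halts translation when it binds double-stranded RNA, ADAR1 (Adar) edits adenosine to inosine in double-stranded RNA and thereby keeps self RNA from being sensed, and ZBP1 binds Z-form RNA or DNA and can start necroptosis. Several of these genes are classical interferon-stimulated genes. In the GENCODE vM21 annotation of GRCm38 they span chr4:40203773-40239828 (Ddx58), chr2:62595798-62646255 (Ifih1), chr11:100694884-100704271 (Dhx58), chr8:61928087-62038244 (Ddx60), chr2:131234063-131248025 (Mavs), chr17:78852564-78882573 (Eif2ak2), chr3:89715022-89753446 (Adar) and chr2:173206612-173218923 (Zbp1), and UMIs were counted over exons and introns.

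The classical route from the interferon receptor to such genes ends at the interferon-stimulated response element. Its core, searched here on both strands as GAAANNGAAA (N is any base), was present in 1131 of 32851 RefSeq promoter windows, 3.44%, where a window runs from 250 bases before to 50 bases after a gene's start (RefSeq annotation of GRCm38.p6). Windows were found for 6 of the 8 members, all but Dhx58 and Zbp1. The core was present for Ifih1, Ddx58, Eif2ak2 and, in 2 copies, Ddx60, and its letters were not in the windows of Mavs or in any of the 3 windows of Adar. The matches are shown 5′ to 3′ on the strand of the gene with the core in capitals, and they are a description of the sequence and not a test of binding. They lie on chr2:62646206-62646233 (Ifih1, minus strand of the genome), chr4:40239804-40239833 (Ddx58, minus strand), chr17:78882535-78882564 (Eif2ak2, minus strand), and chr8:61928024-61928053 and chr8:61928058-61928087 (Ddx60, plus strand). The first capital letter is at position 33 for Ifih1, 3 for Ddx58, 19 for Eif2ak2, and -53 and -19 for Ddx60, where 1 is the first base of the gene in the RefSeq annotation, which for some members differs by a few bases from the GENCODE start, and negative positions lie before it.
Ifih1: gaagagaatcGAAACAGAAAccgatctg
Ddx58 (the core is on the opposite strand): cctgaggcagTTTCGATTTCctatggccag
Eif2ak2: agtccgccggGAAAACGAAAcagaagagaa
Ddx60, distal copy: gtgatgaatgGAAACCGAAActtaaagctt
Ddx60, proximal copy: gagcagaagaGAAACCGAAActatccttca
The 250 bases before the start of Ddx60, the member with the largest change below, are shown to place its 2 copies (chr8:61927837-61928086, plus strand).
Ddx60, upstream: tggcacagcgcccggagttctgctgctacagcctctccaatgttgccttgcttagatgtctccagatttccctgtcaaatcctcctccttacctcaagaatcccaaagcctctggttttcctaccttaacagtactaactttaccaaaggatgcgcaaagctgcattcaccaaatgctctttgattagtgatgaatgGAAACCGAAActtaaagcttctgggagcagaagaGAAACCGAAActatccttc
A second motif, the gamma-activated site TTCNNNGAA, was in 8.3% of all windows and matched once in the window of Eif2ak2 and once in the third window of Adar.

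After limits on genes per nucleus and removal of called doublets, 108878 nuclei remained, 5163 to 9237 per library, with 32977745 to 51983901 unique molecular identifiers (UMIs, counted RNA molecules) per library. Pairs of libraries shared 12 to 41 barcodes. Nuclei were grouped into classes by marker genes, without the members and without known interferon-stimulated genes, and levels are given as CPM, the UMIs of a gene relative to all UMIs of that class in that library. The 7 classes used below ranged from 2299 nuclei (fibroblasts) to 43093 (excitatory neurons), with 4798 microglia. The summed level of 8 microglial markers was 6910 to 12360 CPM in microglia and under 123 CPM in excitatory neurons of every library. Ifnar1 itself was 13.3 to 19.2 CPM over all nuclei in the 8 WT libraries and 10.3 to 11.9 CPM in the 8 KO libraries, with no overlap. Among vehicle mice 48.5% of all genes differed between genotypes over all nuclei by the test described below, Ifnar1 among them. By that test Ifnar1 was also lower in KO excitatory neurons but did not pass in microglia, astrocytes or oligodendrocytes. A 3′ count can lie outside the deleted part of the gene, so its remaining level does not measure the deletion. In nuclei pooled over all classes (whole tissue), fewer cells of a type and less RNA per cell cannot be told apart. Where nothing more is said, tests are edgeR's two-sided quasi-likelihood test across all genes with Benjamini-Hochberg adjustment, a member was called when its adjusted p was under 0.05 and its log2 fold change over 0.1 in size, and ± is the SE of a log2 fold change or the SD of 4 or 8 libraries.

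Without treatment, the sensors were highest in microglia and in fibroblasts of the meninges and vessels, while Adar was highest in neurons. In the 8 vehicle libraries Ddx60 was 45.6 ± 13.9 CPM in microglia, 31.9 ± 17.6 in fibroblasts, 6.07 ± 1.36 in oligodendrocyte precursors, 4.22 ± 1.71 in astrocytes and 0.243 ± 0.0938 in excitatory neurons. Eif2ak2 was 58.8 ± 22.7 CPM in microglia, 45.0 ± 19.2 in fibroblasts, 37.3 ± 4.03 in astrocytes, 10.99 ± 6.87 in oligodendrocyte precursors and 1.04 ± 0.524 in excitatory neurons. In WT alone these means were 77.6 in microglia, 50.5 in fibroblasts and 35.9 in astrocytes, and in KO alone 40.01, 39.5 and 38.7, so that the 3 classes were at similar levels in KO. Ddx58 followed a similar order, with 44.1 ± 19.1 CPM in fibroblasts, 27.7 ± 8.53 in microglia, 19.9 ± 6.63 in oligodendrocyte precursors, 15.2 ± 5.09 in astrocytes and 2.34 ± 0.752 in excitatory neurons. The shared feature of these helicases and PKR is a step between the glial and vascular classes on one side and neurons and oligodendrocytes on the other. Ifih1 was 44.2 ± 17.0 CPM in fibroblasts, 21.0 ± 6.11 in microglia and 8.22 ± 2.42 in astrocytes, and under 1 CPM on average in the other 4 classes, oligodendrocyte precursors included. Mavs was 27.0 ± 4.45 CPM in microglia, 17.4 ± 6.08 in fibroblasts and 15.6 ± 2.98 in astrocytes, but 9.64 ± 2.31 in oligodendrocytes and 0.758 ± 0.325 in excitatory neurons. Adar ran the other way, with 145 ± 22.5 CPM in inhibitory neurons, 109 ± 15.1 in excitatory neurons, 53.8 ± 6.44 in microglia and 37.3 ± 7.19 in oligodendrocytes. Dhx58 had its highest mean over the 8 vehicle libraries in microglia, 4.61 ± 2.71 CPM, but in WT vehicle alone it was 6.80 CPM in fibroblasts and 5.87 in microglia. Zbp1 was at or near 0, with 6 UMIs in fibroblasts, 1 in microglia and none in astrocytes, oligodendrocyte precursors or inhibitory neurons of the 8 vehicle libraries. Because the 3′ counts of different genes are not compared here, these orders hold for 1 gene across classes only. In WT vehicle fibroblasts, endothelial markers summed to 128 to 298 CPM, against 8.44 to 29.8 over all nuclei. T cell markers summed to 43.8 to 141 CPM there, against 11.1 to 14.6. Adar overlaps Chrnb2 on the opposite strand. The part of other cell types or of Chrnb2 in these levels was not tested.

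**Figure D1:**
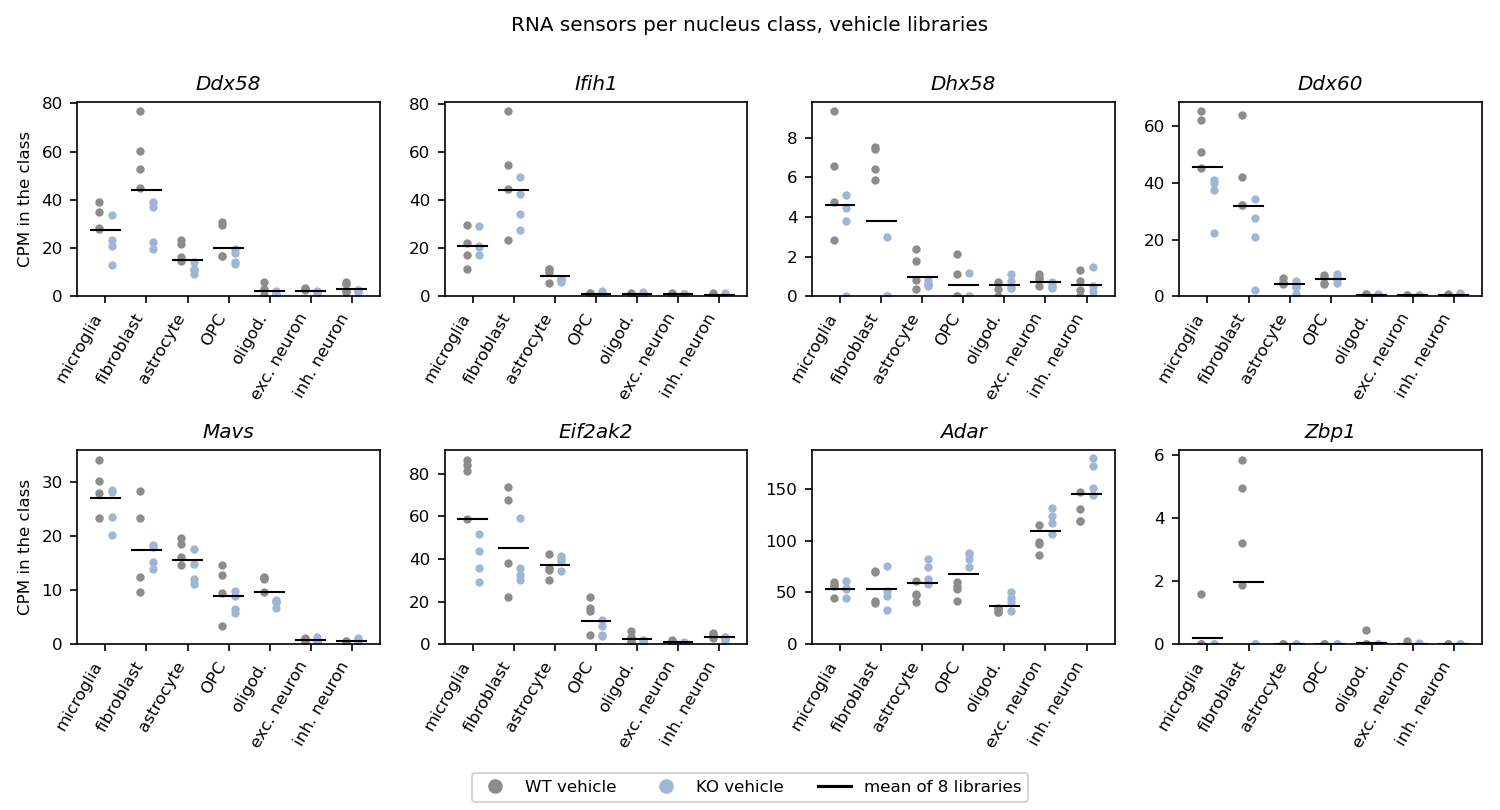
Level of each member (CPM) in 7 nucleus classes, 1 point per vehicle library (WT grey, KO light blue), with the black line at the mean of 8 libraries. The sensors are highest in microglia or fibroblasts, and Adar is highest in inhibitory neurons at 145 CPM and lowest in oligodendrocytes at 37.3 CPM.

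Neighbouring classes in these orders were compared within libraries by a two-sided exact sign-flip permutation test, 48 tests in all, for which the smallest p is 0.00781 and the smallest adjusted p obtained was 0.0375. The step passed, with all 8 libraries in the same direction, from astrocytes down to inhibitory neurons for Ddx58 (12.3 ± 4.73 CPM apart) and Ddx60 (3.74 ± 1.76). For Ifih1 the steps from microglia to astrocytes (12.8 ± 6.22) and from astrocytes to excitatory neurons (7.35 ± 2.25) passed, for Mavs those from astrocytes to oligodendrocytes (5.95 ± 2.72) and from oligodendrocyte precursors to excitatory neurons (8.12 ± 3.65), and for Eif2ak2 those from astrocytes to oligodendrocyte precursors (26.3 ± 8.92) and from there to inhibitory neurons (7.60 ± 6.24). Inhibitory neurons exceeded excitatory neurons in Adar by 35.9 ± 10.1 CPM, and excitatory neurons exceeded oligodendrocyte precursors by 41.5 ± 10.5. No other step passed after adjustment, and none of Dhx58 or Zbp1. Fibroblasts were above microglia in 7 of 8 libraries for Ddx58 (16.4 ± 15.9 CPM apart) and Ifih1 (23.2 ± 20.8), microglia above fibroblasts in 7 of 8 for Mavs (9.60 ± 8.08), and fibroblasts above oligodendrocyte precursors in 7 of 8 for Ddx60 (25.8 ± 18.1). These 4 steps exceeded their SD but had an adjusted p of 0.0536 in the exact permutation test.

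DMXAA raised most of the sensors in WT microglia, roughly 4-fold for Ddx58, Ifih1 and Ddx60, and brought Zbp1 up from almost nothing. Ddx58 was 27.97, 34.98, 39.3 and 28.4 CPM in the 4 WT vehicle libraries and 211, 120, 64.2 and 115 CPM in the 4 WT DMXAA libraries. Ifih1 was 29.5, 22.3, 11.5 and 17.0 CPM in WT vehicle and 134, 64.8, 52.5 and 69.4 in WT DMXAA. For both helicases every DMXAA library was above every vehicle library, the first DMXAA library being the highest and the third the lowest. The log2 fold change was 1.99 ± 0.278 for Ddx58 (adjusted p = 0.000589) and 2.02 ± 0.313 for Ifih1 (adjusted p = 0.00168). Ddx60 went from 65.3, 50.9, 62.2 and 45.5 CPM to 353, 179, 149 and 191, a log2 fold change of 2.00 ± 0.235 (adjusted p = 0.000121). Eif2ak2 went from 83.9, 81.1, 58.9 and 86.6 CPM to 365, 254, 158 and 235, a log2 fold change of 1.73 ± 0.205 (adjusted p = 0.000121). The kinase and DDX60 thus rose from levels that were already substantial, again without overlap of the groups.

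Adar and Zbp1, which both bind Z-form RNA, also rose in microglia. Adar was 55.9, 60.4, 44.2 and 56.8 CPM in WT vehicle and 127, 98.7, 152 and 104 CPM in WT DMXAA, a log2 fold change of 1.21 ± 0.225 (adjusted p = 0.00614). Here the third DMXAA library was the highest, whereas it was the lowest for Ddx58 and Ifih1. Zbp1 had 0, 1, 0 and 0 UMIs in the WT vehicle libraries and 68, 17, 8 and 10 UMIs in the WT DMXAA libraries, 92.7, 26.2, 9.34 and 13.4 CPM. The groups did not overlap, and the ratio of the pooled counts was 89.2, with an exact 95% counting interval of 15.7 to 3557 that covers counting error only. Without the first DMXAA library, which held most of these UMIs, the ratio was 40.2 (6.75 to 1632). Zbp1 and Dhx58 did not pass the filter on low counts in microglia, so they were tested by a two-sided exact permutation test of their CPM, which gave p = 0.0286 for each, the smallest that 4 against 4 libraries allow. Dhx58 was 9.32, 4.77, 6.55 and 2.84 CPM in WT vehicle and 68.2, 43.2, 16.4 and 54.8 in WT DMXAA. Without that filter, the edgeR quasi-likelihood test of the same counts gave adjusted p = 2.43e-05 for Zbp1 and 4.41e-05 for Dhx58. Only WT DMXAA libraries were above the limit of the filter for either gene. This fit used the same counts and adds no support.

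Mavs, the adaptor that RIG-I and MDA5 share, was the only member that was not called or separated in WT microglia. It was 23.3, 30.2, 27.8 and 34.1 CPM in vehicle and 46.4, 32.4, 15.2 and 46.7 CPM in DMXAA libraries, a log2 fold change of 0.31 ± 0.274 (adjusted p = 0.803). In microglia 5 of the 6 members tested were called, all higher, against 1.94% of the 8979 genes tested, and 7 of all 8 members had every DMXAA library above every vehicle library, against 2.24% of genes with a mean of at least 5 UMIs. In the same libraries the summed microglial markers were 10520 to 11160 CPM with vehicle and 6910 to 10490 with DMXAA, all 8 being detected in both groups. Of 7 markers of border macrophages, Cd163, Lyve1 and Pf4 were at 0 in both WT groups, and the sum was 254 to 328 CPM with vehicle and 210 to 342 with DMXAA. Excitatory neuron markers summed to 223 to 344 CPM in WT vehicle microglia and to 160 to 488 in WT DMXAA microglia, the highest being the third DMXAA library, in which Adar was also highest. Markers of the choroid plexus summed to 104, 248, 170 and 15.6 CPM in WT vehicle microglia and 172, 362, 57.2 and 764 in WT DMXAA microglia, with overlapping groups, and endothelial markers to 22.3 to 34.2 and 9.25 to 24.0. The part of these transcripts in the member levels was not tested.

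**Figure D2:**
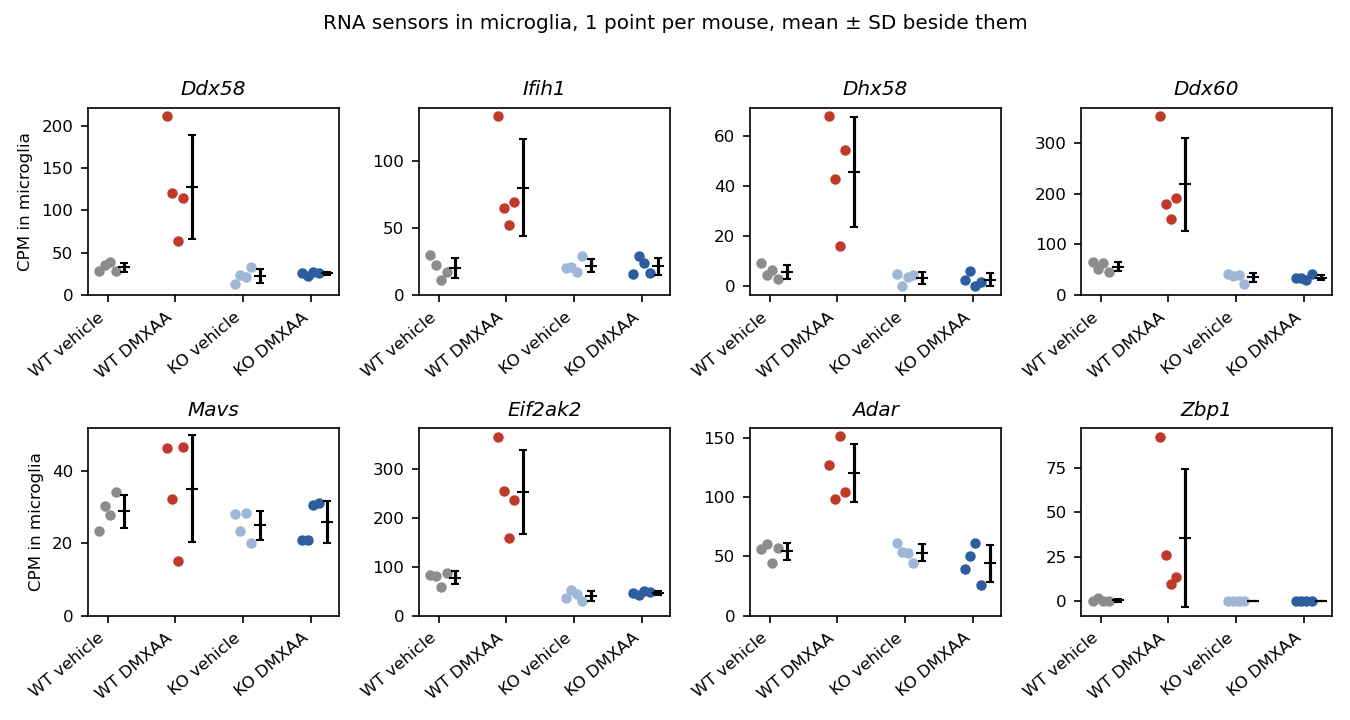
Level of each member in microglia (CPM), 1 point per mouse in the 4 groups, with the mean ± SD of 4 mice beside the points. In WT all members but Mavs are higher with DMXAA in every mouse, while for these members no KO mouse reaches the lowest WT DMXAA mouse, and Zbp1 is at 0 in all 8 KO mice.

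The response in single microglial nuclei was an increase in both the share of nuclei with a transcript and the number of members seen together. At least 1 member UMI was found in 37.6% of 1327 WT vehicle nuclei and 76.8% of 1470 WT DMXAA nuclei, and UMIs of at least 3 members in 1.51% and 17.0%. By library, the first share was 33.2 to 40.4% with vehicle and 68.5 to 88.2% with DMXAA, and the second 0.940 to 1.90% and 8.63 to 32.2%, so neither overlapped. Thinned to 1000 UMIs per nucleus, they were 20.05 to 22.96% against 45.9 to 74.8%, and 0.3125 to 0.5495% against 1.54 to 11.4%. In KO at least 1 member was found in 283 of 931 vehicle nuclei and 321 of 1070 DMXAA nuclei, and 3 members in 0.537% and 0.28%. Median depth was 1859 UMIs per nucleus in WT vehicle and 1944.5 in WT DMXAA microglia. With each nucleus thinned to 1000 UMIs, which left out 11 and 22 shallower nuclei, the mean share with a Ddx60 UMI rose from 5.06% (3.63 to 6.16% per library) to 17.6% (12.5 to 27.0%), against 9.06% and 29.6% unthinned. The share with a Zbp1 UMI was 0.0789% in vehicle and 6.16% (1.78 to 15.3%) in DMXAA unthinned, whereas it was 0 of 3070 astrocyte nuclei of the same DMXAA libraries, which allows a share of up to 0.0977% of nuclei with a UMI, not of nuclei expressing the gene, by counting error alone, at a median of 2943 UMIs.

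In WT excitatory neurons, Ddx60 and Eif2ak2 rose the most of the members, from low levels. Ddx60 was 0.239, 0.324, 0.151 and 0.366 CPM in vehicle and 25.3, 11.2, 8.86 and 7.87 CPM in DMXAA libraries, a log2 fold change of 5.62 ± 0.408 (adjusted p = 4.75e-06). Eif2ak2 was 1.28, 2.05, 1.003 and 1.34 CPM in vehicle and 33.7, 12.5, 8.75 and 10.8 CPM in DMXAA, a log2 fold change of 3.55 ± 0.394 (adjusted p = 0.000287). Both genes were thus several-fold above every vehicle library in every treated mouse. These 2 of 7 members tested were called, against 0.131% of 17540 genes. Ddx60 passed the filter on low counts only through the WT DMXAA libraries, so it had to be higher there to be tested, and its place in this count is no support. Without the filter it was called as well (adjusted p = 3.23e-07), but that fit used the same counts and adds no support. Ifih1 went from 1.20, 1.05, 1.003 and 0.896 CPM to 7.04, 1.96, 2.15 and 2.25, without overlap (as 0.71% of genes) but with an adjusted p of 0.306 (log2 1.73), and Ddx58 had a log2 fold change of 1.17 with overlapping groups (adjusted p = 0.275). DESeq2 called both. Adar, already abundant in neurons, was 99.1, 86.0, 115 and 96.7 CPM in vehicle and 82.6, 85.7, 130 and 93.5 CPM in DMXAA libraries, so that the groups overlapped (log2 0.12, adjusted p = 1).

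The 4 groups of excitatory neurons that could be assigned by regional markers were examined separately for the same genes. In dentate gyrus granule cells, Ddx60 had 0, 2, 0 and 0 UMIs in WT vehicle and 340, 174, 167 and 91 in WT DMXAA, a ratio of 371.6 with a counting interval of 102.5 to 3074. Eif2ak2 was 0.682, 1.86, 1.03 and 0.586 CPM there in vehicle and 50.2, 14.9, 10.5 and 14.7 in DMXAA (log2 4.37 ± 0.457, adjusted p = 9.56e-05). For both genes every DMXAA library was above every vehicle library, and the share of all genes that separated in this group was not computed. In CA1, Ddx60 (log2 5.18, adjusted p = 0.000157) and Eif2ak2 (3.09, adjusted p = 0.00955) were called as well. In CA3 Eif2ak2 was called (2.61, adjusted p = 0.015) and Ddx60 was not (3.65, adjusted p = 0.0651), and in cortical neurons carried with the dissection Eif2ak2 was called (3.28, adjusted p = 0.037) and Ddx60, with 3 and 57 UMIs, was not tested. Members called were 2 of 5 tested in dentate gyrus, 2 of 4 in CA1, 1 of 4 in CA3 and 1 of 4 in cortex, against 0.144%, 0.0463%, 0.0509% and 0.0156% of all genes. Every member called in these groups had passed the filter on low counts only through the WT DMXAA libraries, so these counts describe the members and support nothing further.

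Microglial transcripts that stray into other nuclei were measured with the microglial markers. In excitatory neurons the sum of the 8 markers was 73.1 to 93.1 CPM in WT vehicle and 30.6 to 122.6 in WT DMXAA, so the ranges overlapped, and it was 25.8 to 51.3 CPM in KO. In WT DMXAA libraries the markers reached a median of 0.144% (0.0404 to 7.05%) of their own microglial level in excitatory neurons, the highest being P2ry12. Ddx60 stood at 6.11% and Eif2ak2 at 6.49% of the microglial level, while Zbp1 stood at 0.124%. In astrocytes the markers had a median of 0.205% (0.0785 to 5.11%) and Ddx60 55.0%, and in oligodendrocyte precursors 0.33% (0.0366 to 5.89%) and 86.2%.

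**Figure D3:**
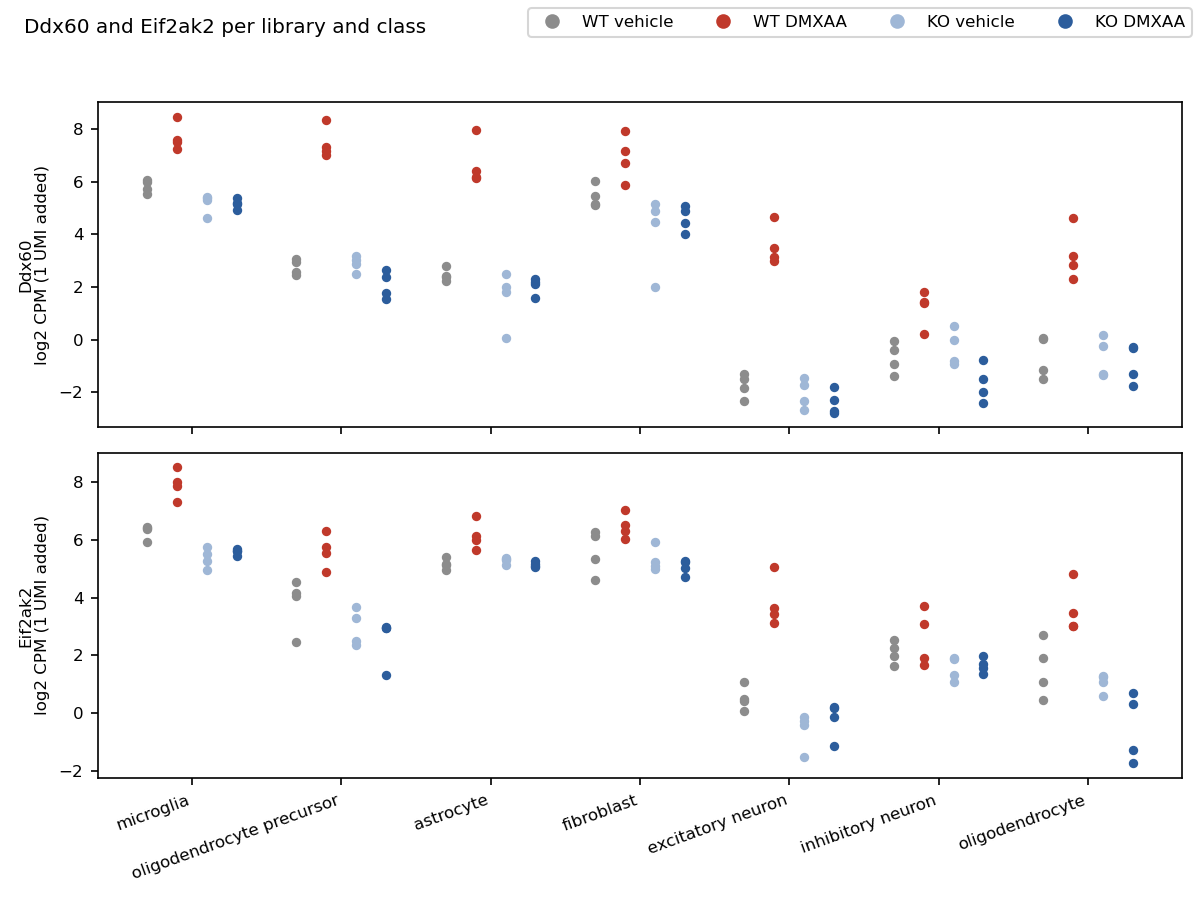
Level of Ddx60 and Eif2ak2 (log2 CPM with 1 UMI added per library) in 7 classes, 1 point per mouse in the 4 groups. The WT DMXAA mice lie above the other groups in microglia, astrocytes, oligodendrocyte precursors, oligodendrocytes and excitatory neurons, and the WT vehicle level of Ddx60 is 55.95 CPM in microglia and 0.270 CPM in excitatory neurons.

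Astrocytes and oligodendrocyte precursors shared 4 called members, Ddx58, Ifih1, Ddx60 and Eif2ak2. In astrocytes Ddx60 was 4.75, 6.56, 4.92 and 4.40 CPM in WT vehicle and 251, 85.7, 71.0 and 72.8 in WT DMXAA (log2 4.61 ± 0.432, adjusted p = 7.71e-05, or log2 4.01 without the first DMXAA library). Ddx58 was 21.8, 23.4, 14.8 and 16.1 CPM in vehicle and 98.01, 44.9, 34.7 and 50.4 in DMXAA (log2 1.67 ± 0.251, adjusted p = 0.00416). Eif2ak2, which astrocytes already held at 30.4 to 42.2 CPM, reached 49.9 to 112 CPM (log2 1.12 ± 0.174, adjusted p = 0.00468), and Ifih1 had a log2 fold change of 1.58 ± 0.265 (adjusted p = 0.011, or 0.0647 without the fourth vehicle library). In all 4 genes the DMXAA libraries were above all vehicle libraries, as were 0.737% of the 13980 genes with a mean of at least 5 UMIs. Adar was 40.6 to 61.3 CPM in vehicle and 63.4 to 109 in DMXAA, also without overlap, but was not called (log2 0.75 ± 0.197, adjusted p = 0.223). Zbp1 was at 0 UMIs in astrocytes of all 16 libraries. Of 6 members tested in astrocytes 4 were called, against 0.255% of 13352 genes.

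In oligodendrocyte precursors Ifih1 rose from very few UMIs. Its UMIs were 1, 1, 0 and 1 in WT vehicle and 26, 14, 11 and 12 in WT DMXAA, a ratio of 22.3 with a counting interval of 7.28 to 111, and the fitted log2 fold change was 4.33 ± 0.633 (adjusted p = 0.000843). Over the alternative settings this log2 fold change was 3.31 to 4.57. Ddx60 was 4.72, 6.72, 7.42 and 4.40 CPM in vehicle and 324, 159, 141 and 129 in DMXAA (log2 5.04 ± 0.311, adjusted p = 1.4e-09). The level of Ddx60 in treated precursors thus approached that of treated microglia. Ddx58 was 29.5, 16.8, 30.7 and 16.5 CPM in vehicle and 124, 61.0, 40.1 and 97.2 in DMXAA (log2 1.84 ± 0.272, adjusted p = 0.000889), and Eif2ak2 22.4, 15.7, 17.0 and 4.40 against 78.7, 45.8, 28.7 and 53.3 (log2 1.86 ± 0.351, adjusted p = 0.0192). The call for Eif2ak2 was lost when the second, the third or the fourth vehicle library or the first DMXAA library was left out, and limma-trend gave adjusted p = 0.214. Adar was not called in this class (41.4 to 60.4 CPM against 42.3 to 61.9, log2 0.03). Of 5 members tested 4 were called, against 0.198% of 9595 genes. Ifih1 and Ddx60 passed the filter on low counts only through the WT DMXAA libraries, so their place in this count is no support. Without the filter both were called (adjusted p = 1.28e-08 and 6.63e-81), but that fit used the same counts and adds no support. The share of precursor nuclei with a Ddx60 UMI went from 0.483% to 16.3% when thinned to 1000 UMIs (10 and 7 nuclei left out), or from 1.87% to 45.4% unthinned.

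In mature oligodendrocytes, inhibitory neurons and fibroblasts edgeR called no member, and it called no gene at all in these classes (0% of 12095, 13701 and 8535 genes). Of the members tested, 3 of 5, 1 of 3 and 3 of 6 had an unadjusted p under 0.05, against 5.8%, 4.55% and 5.64% of all genes. The 3 in oligodendrocytes, Ddx58, Ddx60 and Eif2ak2, passed the filter on low counts only through the WT DMXAA libraries, so their count is no support. In oligodendrocytes Ddx60 was 0.676, 0.694, 0 and 0 CPM in WT vehicle and 24.4, 6.78, 8.83 and 4.69 in WT DMXAA, a complete separation, as in 0.427% of genes there, with an adjusted p of 0.0522 (log2 4.86 ± 0.753). Eif2ak2 also separated completely there, at 3.38, 6.25, 1.77 and 0.904 CPM against 28.0, 7.75, 10.7 and 7.82 (log2 2.19, adjusted p = 0.383), and Mavs lay the other way, at 9.72 to 12.5 CPM with vehicle and 7.26 to 9.37 with DMXAA (log2 -0.31). The share of all genes with DMXAA below vehicle was not computed for WT oligodendrocytes. Ddx60 was called in oligodendrocytes when any 1 of the 4 DMXAA libraries was left out (adjusted p = 0.0448, 0.0384, 0.00169 and 0.0392 in their order), and Eif2ak2 and Ddx58 were called without the third (adjusted p = 0.0233 and 0.0384). Because these 3 genes passed the filter only through the WT DMXAA libraries, these calls are no support either. The shares of all genes called in these fits are not given here. In inhibitory neurons Ddx60 was too low for the fit, with 5 UMIs in WT vehicle and 38 in WT DMXAA, and every DMXAA library was above every vehicle library, as in 1.09% of genes (two-sided exact permutation p = 0.0286). In fibroblasts, Zbp1 had 6 UMIs in WT vehicle and 15 in WT DMXAA with overlapping groups (exact permutation p = 0.114).

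Over all nuclei of WT mice, 5 of 7 members tested were called, against 0.435% of 20005 genes. Ddx60 had the largest change (log2 3.63 ± 0.297, adjusted p = 4.3e-05), followed by Eif2ak2 (1.97 ± 0.218, adjusted p = 0.000262), Ifih1 (1.59 ± 0.255, adjusted p = 0.0052), Ddx58 (1.39 ± 0.221, adjusted p = 0.00472) and Dhx58 (1.14 ± 0.218, adjusted p = 0.0251). Adar and Mavs had adjusted p = 1. Dhx58 lost its call without the first or the fourth DMXAA library or any 1 of the vehicle libraries, and with all deposited barcodes (log2 0.94, adjusted p = 0.0783).

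**Figure D4:**
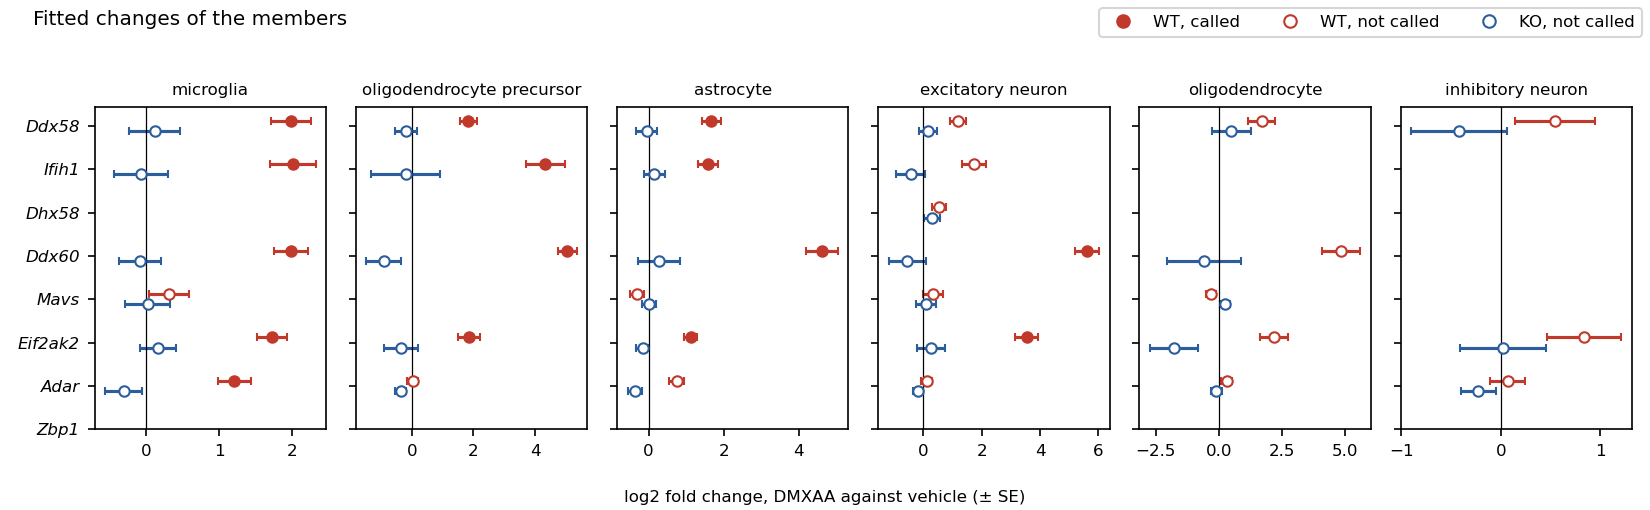
Log2 fold change ± SE of each member, DMXAA against vehicle, in 6 classes, WT in red and KO in blue, with filled points where the member was called and no point where it did not pass the filter on low counts. Ddx60 spans 2.00 in microglia to 5.62 in excitatory neurons of WT mice, and no KO point is filled.

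The mean WT change of each gene was set side by side between classes as a description, in which no difference passed the test given below. The mean change of Ddx60 in microglia was smaller than in excitatory neurons (difference -3.44 log2 units), oligodendrocyte precursors (-2.82) and astrocytes (-2.37). Eif2ak2 also changed less in microglia than in excitatory neurons (-1.69) but more than in astrocytes (0.66). Adar and Zbp1 changed more in microglia, Adar by 1.15 over excitatory neurons and 1.17 over oligodendrocyte precursors, and Zbp1 by 3.33 over excitatory neurons on this scale with 1 UMI added. These differences were tested within libraries by a two-sided exact permutation test in 32 comparisons, of which none passed after adjustment. The smallest p that 4 against 4 libraries allow is 0.0286, which became 0.0571 after adjustment. Even a comparison at this smallest p could therefore not pass. Among those at it were all comparisons of Ddx60 and of Zbp1. The lack of a pass does not show that the classes changed alike.

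In KO mice no change of a member with DMXAA passed the edgeR test. No member was called among the 7 classes and pools tested (edgeR, 0% of genes in each), and 1 member in 1 class had an unadjusted p under 0.05, Adar in oligodendrocyte precursors with a log2 fold change of -0.36 ± 0.164, as had 5.08% of all genes in that class. DESeq2 and limma-trend called none either. In KO microglia Ddx58 was 12.8, 23.4, 20.9 and 33.5 CPM in vehicle and 26.0, 22.9, 27.3 and 25.8 in DMXAA libraries, Ddx60 was 40.9, 37.5, 39.9 and 22.3 against 33.8, 33.4, 29.0 and 40.5, and Eif2ak2 was 35.8, 51.6, 43.7 and 29.0 against 46.8, 41.7, 49.5 and 47.8. The groups overlapped for all 3 genes, and log2 fold changes were 0.11 ± 0.352, -0.09 ± 0.287 and 0.16 ± 0.246. Zbp1 had no UMI in microglia of any of the 8 KO libraries, and its pooled level in WT DMXAA microglia was at least 22.9-fold higher than in KO DMXAA microglia, taking 3 counts over the group as the floor, or at least 10.3-fold without the first WT DMXAA library. In KO excitatory neurons Ddx60 was 0.119 to 0.322 CPM with vehicle and 0.0982 to 0.248 with DMXAA. There were 2 separations, both with few counts, Dhx58 above vehicle over all nuclei (0.474 to 0.637 against 0.741 to 0.800 CPM, log2 0.37, adjusted p = 0.771), as were 5.57% of 20293 genes there, and below it in oligodendrocytes (7 against 1 UMIs), as were 2.28% of 16106 genes with a mean of at least 1 UMI there. The latter was the 1 of 15 two-sided exact permutation tests of members below the count filter in KO with p = 0.0286, the smallest possible, against 4 of 16 such tests in WT.

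The difference between genotypes in the response was tested as the WT change minus the KO change. It was called for Ddx60 in excitatory neurons (log2 6.18 ± 0.786, adjusted p = 0.00406, or 0.0552 without the third KO vehicle library), oligodendrocyte precursors (5.94 ± 0.709, adjusted p = 0.000301), microglia (2.09 ± 0.37, adjusted p = 0.0286) and all nuclei (3.68 ± 0.415, adjusted p = 0.00347), and for Eif2ak2 over all nuclei (2.19 ± 0.305, adjusted p = 0.0102). These are 1 member in each of the 3 classes and 2 in whole tissue, against 0.0285%, 0.0521%, 0.145% and 0.075% of genes. In excitatory neurons and oligodendrocyte precursors Ddx60 passed the filter on low counts only through the WT DMXAA libraries, so these 2 calls and their counts are no support. Without the filter it was called in both (adjusted p = 0.00194 and 3.53e-18), but that fit used the same counts and adds no support. For the other members with a called WT change the difference had the same direction without passing, for example in microglia Eif2ak2 (1.57 ± 0.32, adjusted p = 0.0671), Adar (1.52 ± 0.34, adjusted p = 0.105), Ifih1 (2.09 ± 0.49, adjusted p = 0.134) and Ddx58 (1.88 ± 0.452, adjusted p = 0.145). All 4 of these and Ddx60 were called when the third WT DMXAA library was left out (adjusted p = 0.00219, 0.0304, 0.0181 and 0.00748, and 0.00123 for Ddx60). The share of all genes called in that fit is not given here, so these calls are a description and no support. That library was the lowest of its group in microglia for these genes except Adar, for which it was the highest. Without the first, the second or the fourth WT DMXAA library, only Ddx60 was called in microglia. The call for Ddx60 in microglia was lost without any 1 of 10 libraries, all of the KO DMXAA group, the first 3 of KO vehicle and all but the first of WT vehicle, the highest adjusted p being 0.0987. In astrocytes, oligodendrocytes and inhibitory neurons no member was called by edgeR (0% of genes), with 5, 2 and 0 members under an unadjusted p of 0.05, against 7.21%, 5.36% and 6.53% of all genes. DESeq2 called 3 members in astrocytes, Ddx60, Ddx58 and Eif2ak2, and the share of all genes that it called there is not given here.

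Among vehicle mice the genotypes, and with them the cohorts, differed in many genes, so that the members are read against a high background. Adar was higher in KO than in WT vehicle in excitatory neurons (131, 124, 117 and 106 CPM against 99.1, 86.0, 115 and 96.7, log2 0.74 ± 0.187, adjusted p = 0.00493) and in inhibitory neurons (172, 180, 151 and 144 against 119, 119, 147 and 131, log2 0.70 ± 0.177, adjusted p = 0.00648). It was also higher in oligodendrocyte precursors (log2 0.83 ± 0.169, adjusted p = 0.00228), astrocytes (0.63 ± 0.195, adjusted p = 0.0243) and all nuclei (0.58 ± 0.2, adjusted p = 0.0259), but not in microglia (0.08 ± 0.244, adjusted p = 0.84). In microglia Eif2ak2 was lower in KO (35.8, 51.6, 43.7 and 29.0 CPM against 83.9, 81.1, 58.9 and 86.6, log2 -0.83 ± 0.232, adjusted p = 0.0275), without overlap of the groups. This call was lost without the first, the second or the fourth WT vehicle library or the first, the third or the fourth KO vehicle library, the highest adjusted p being 0.0823. The call for Adar was lost in astrocytes without the first, the second or the fourth WT or the first or the second KO vehicle library (adjusted p up to 0.0858), and over all nuclei without the second WT or the first or the second KO vehicle library (up to 0.0728). It was kept under all 23 alternatives in excitatory neurons and in oligodendrocyte precursors. Members called were 1 of 7 in excitatory neurons, 1 of 3 in inhibitory neurons, 1 of 5 in oligodendrocyte precursors, 1 of 6 in astrocytes, 1 of 7 in all nuclei, 1 of 6 in microglia and 0 of 5 in oligodendrocytes (2 with an unadjusted p under 0.05, against 43.0% of all genes). The shares of all genes called were 51.4%, 39.3%, 25.1%, 29.7%, 48.5%, 12.6% and 30%, against which these counts do not set the members apart.

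A further 70 genes in 8 lists place the members in their pathways. They met the same filter on low counts, which a gene near 0 without treatment could pass only through the treated group. Which of them did so was not examined, so the counts of called genes here and in the next paragraph are a description and no support. In WT microglia 9 of 51 tested were called, all higher, against 1.94% of all genes, with a median log2 change of 0.16 over the lists beside 0.04 over all genes. They included Oas2 (log2 8.99 ± 0.938), Oasl2 (6.42 ± 0.826) and Oas1a (5.02 ± 0.644), members of the family of 2′-5′-oligoadenylate synthetases, which sense double-stranded RNA, Nlrc5 (4.32 ± 0.405), a regulator of MHC class I genes, and Trim25 (1.58 ± 0.273), a ubiquitin ligase of the RIG-I pathway. The others were Zc3hav1 (1.31 ± 0.178), which binds viral RNA, the editing enzymes Apobec3 (0.86 ± 0.143) and Apobec1 (0.84 ± 0.184), and the nucleotide hydrolase Samhd1 (0.92 ± 0.218). By list, these were 3 of 4 tested in the oligoadenylate synthetase arm, 3 of 11 regulators of RIG-I, 2 of 4 editing enzymes and 1 of 6 genes that limit self RNA. None of the 13 tested genes that signal below MAVS was called in microglia, nor any of 7 genes of the eIF2alpha kinases and stress response, 3 of necroptosis or 3 of endosomal RNA sensing.

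In WT excitatory neurons 4 of 54 were called (0.131% of all genes), Oasl2 (log2 6.12 ± 0.747), the transcription factor Irf7 (4.48 ± 0.697), Trim25 (2.52 ± 0.449) and Zc3hav1 (1.62 ± 0.278), and in astrocytes 4 of 53 (0.255% of all genes), Oasl2 (4.75 ± 0.679), Nlrc5 (2.99 ± 0.526), Trim25 (1.68 ± 0.26) and Zc3hav1 (1.32 ± 0.264). Trim25 was the 1 of 37 called in oligodendrocyte precursors (1.56 ± 0.328), against 0.198% of all genes. In each case the called genes were higher with DMXAA. Over all nuclei 8 of 64 were called (0.435% of all genes), the largest changes being those of Oasl1 (4.75 ± 0.819), Irf7 (4.14 ± 0.524), Oasl2 (3.97 ± 0.543), Oas1a (3.51 ± 0.552) and Oas2 (2.69 ± 0.37), and in oligodendrocytes and inhibitory neurons none of 48 and 40. In KO none was called in any of these classes. The WT change minus the KO change was called for Zc3hav1 in microglia (1.37 ± 0.26, adjusted p = 0.0422).

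Finally, the genes whose levels ran most like each member were sought over 28 points, the means of 4 groups in 7 classes, among 20645 genes. The points share libraries, and the correlations are a description. Ddx58 was most like Irgm1 (Pearson r = 0.952), Ddx60 (0.947) and Parp12 (0.943), and Ddx60 most like Irgm1 (0.953), Ddx58 (0.947) and Dtx3l (0.928). Ifih1 was most like Gbp7 (0.969), Parp14 (0.95) and Cd274 (0.943), Eif2ak2 like Parp12 (0.949), Rnf213 (0.945) and Shisa5 (0.944), and Zbp1 like Oas1g (0.982), Oas2 (0.951) and Oas1a (0.95). For these 5 members the third gene still had a correlation of at least 0.928. Zbp1 had only 156 UMIs in all. In WT DMXAA its mean was 35.4 CPM in microglia and 12.9 in fibroblasts but 0 in astrocytes and oligodendrocytes, so its correlations rest on few points. Mavs was most like Agmo (0.989), Pmp22 (0.981) and Abca1 (0.971), Adar had no neighbour above Pitpnm3 (0.869), Slc37a1 (0.86) and Gm27188 (0.857), and Dhx58, with 692 UMIs in all, was most like Gm15133 (0.941), Plac8 (0.928) and Gm15907 (0.927).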

How the data were processed

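Counts were the deposited UMI tables of the authors, 1 per mouse, made from 10x 3′ v3.1 libraries with Cell Ranger (3.1.0 in the submitters' processing notes, 6.1.2 in the file headers) on mm10, introns included. The deposited libraries held 66059561 to 93228638 UMIs. Nuclei with 200 to 4000 genes and at most 5% mitochondrial UMIs were kept, and 9327 called doublets (7.89%, marked by similarity to simulated doublets) were removed. Clustering used 2000 variable genes without members, pathway genes or interferon-stimulated genes, 30 principal components, 20 neighbours and Leiden resolution 0.5 (leidenalg 0.10.2). Clusters were named from listed markers, with limits set after the clusters were seen, and 7.35 to 19.6% of nuclei per library stayed unnamed. UMIs were summed per library and class (at least 20 nuclei) and fitted over all 16 libraries with edgeR 4.0.16 (TMM, filterByExpr, quasi-likelihood test). Only counts of the same gene were compared between classes. The members, lists, markers and tests were chosen with earlier results of these data known.

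The fit was tested on simulated data. All members were named. Of the 70 pathway genes, those called in WT were named, up to 5 per class by size, together with those called in KO or in the difference between genotypes; the others called in microglia were added after their values were seen. For each member with at least 100 UMIs, 3 genes of most similar level were named. Alternatives were size factors, the count filter, DESeq2 1.42.0, limma-trend (limma 3.58.1), each library left out, doublets, clustering, all deposited barcodes and prior counts. Leaving a library out of the pooled UMI ratios was added after seeing the data. Each library was 1 mouse. Dhx58 overlaps Dhx58os and Adar overlaps Chrnb2 on the opposite strand, and whether counting used strand is not given in the sources used here.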

Additional observations from a re-analysis of the deposited data

Results flagged for a closer look

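Single libraries stood apart from the other 3 of their group in 11 of 138 groups examined, where chance alone gives about 1 in 20. In 7 of them it was the first WT DMXAA library, which was above the others of its group in Ddx60 over all nuclei (49.29 CPM, others 18.02 to 22.08), in astrocytes (250.6, others 70.98 to 85.66) and in oligodendrocyte precursors (323.5, others 128.5 to 158.5). The same library was high in Eif2ak2 in excitatory neurons (33.68 CPM, others 8.746 to 12.45) and oligodendrocytes (27.96, others 7.752 to 10.72), in Ifih1 in excitatory neurons (7.043, others 1.961 to 2.248) and in Ddx58 in oligodendrocytes (19.35, others 4.416 to 6.46). It was the highest WT DMXAA library for Ddx58 and Eif2ak2 in all 7 classes and pools with enough counts. Adar over all nuclei was 124.7 CPM in the third WT DMXAA library (others 79.28 to 86.78), which was the highest of its group for Adar in 7 of 7. Mavs in the fourth KO vehicle library was 4.436 CPM over all nuclei (others 3.214 to 3.389) and 1.352 CPM in excitatory neurons (others 0.46 to 0.5805), and Adar in astrocytes of the second KO DMXAA library was 62.73 CPM (others 51.44 to 52.41).

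The test of the difference between genotypes in the DMXAA change called Ddx60 in excitatory neurons (6.176 log2 units), oligodendrocyte precursors (5.944), microglia (2.087) and all nuclei (3.683), and Eif2ak2 over all nuclei (2.187). In excitatory neurons and oligodendrocyte precursors Ddx60 passed the filter on low counts only through the WT DMXAA libraries, so its calls there are no support. Its call in microglia was lost in 10 of 23 alternatives.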

How the results depend on the processing

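The number of members called in KO was 0 under all 144 alternatives, and no called fold change reversed: of 568 alternative values, 544 stayed past the threshold in the same direction and 24 lost it. A count was taken as moved only when it changed by a large factor, or to or from 0. Smaller shifts, such as those in the ranges that follow, were not taken as moved. By that rule the counts in WT moved in 8 of 144 alternatives: 4 in excitatory neurons with DESeq2, and 1 in oligodendrocytes with DESeq2-type size factors, without the filter on low counts or with doublets kept, with a range of 0 to 3 when a library was left out. The corresponding ranges were 4 to 6 over all nuclei, 5 to 6 in microglia, 2 to 3 in excitatory neurons, 3 to 4 in astrocytes and 3 to 4 in oligodendrocyte precursors. In the difference between genotypes, DESeq2 called 4 members over all nuclei, 3 in microglia, 2 in excitatory neurons and 3 in astrocytes; without the filter on low counts 2 were called in microglia, 2 in astrocytes and 3 in oligodendrocyte precursors; limma-trend called 2 in microglia and 1 in astrocytes; and 2 were called in microglia with doublets kept. With a library left out these counts ranged from 2 to 4 over all nuclei, 0 to 5 in microglia, 0 to 1 in excitatory neurons, 0 to 3 in astrocytes and 1 to 2 in oligodendrocyte precursors. For KO against WT vehicle, 2 members were called over all nuclei with doublets kept or with all deposited barcodes and 1 in oligodendrocytes with doublets kept, and the ranges without a library were 0 to 2 over all nuclei, 0 to 1 in microglia, 0 to 2 in astrocytes and 0 to 1 in oligodendrocytes. The shares of all genes called under these alternatives are not given here, and the causes were not tested. Other single calls lost were Ifih1 in astrocytes without the fourth WT vehicle library (adjusted p = 0.0647) and the genotype difference of Ddx60 in excitatory neurons without the third KO vehicle library (adjusted p = 0.0552). With a prior count of 0.25, the Ifih1 change in microglia minus that in oligodendrocytes turned from 0.39 to -0.09 (-0.08721), and the other 31 differences kept their direction. With all libraries, Zbp1 passed the filter on low counts in no class, and Dhx58 only in excitatory neurons and over all nuclei. Without the third WT DMXAA library, Dhx58 was tested and called in microglia (log2 3.21, adjusted p = 8.34e-07) and Zbp1 over all nuclei (3.60, adjusted p = 0.00203). With all libraries, only WT DMXAA libraries were above the limit of the filter for either gene there, so these calls are no support. Leaving out a library was not run for inhibitory neurons, fibroblasts and the regional groups. No paired analysis was possible because replicate numbers follow accession order and pair no mice.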
